A study of Mus musculus with 2 samples.

Results

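Mitochondrial ribosomal protein (MRP) genes were examined in donor T cells recovered from the spleen during acute graft-versus-host disease (aGvHD). They were taken as every gene in the deposited feature list whose symbol starts with Mrpl or Mrps followed by a digit, which gave 78 of 32285 genes. By symbol, 49 belong to the large subunit and 29 to the small subunit. The rule uses the symbols alone. Of the 78, 77 reached a mean of at least 10 unique molecular identifiers (UMIs) per 1000000 UMIs, written as 10 CPM, the level above which 6919 genes were compared. The exception was Mrps2, with 6.27 CPM at day +7 and 7.64 CPM at day +14.

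Mitochondria keep their own ribosome, which translates the 13 proteins encoded by mitochondrial DNA, all of them parts of the respiratory chain or ATP synthase. Every protein of this ribosome is encoded in the nucleus, made in the cytosol and imported, whereas its ribosomal RNAs come from mitochondrial DNA. Some of these proteins have bacterial relatives and others are found only in mitochondria. Activated T cells enlarge their mitochondrial mass as they enter the cell cycle, and mitochondrial translation is needed for that expansion. Some symbols mislead. Mrps30 and Mrps18a sit in the large subunit, Mrps36 is a component of the α-ketoglutarate dehydrogenase complex, and a few subunits carry other symbols, such as Dap3 and Ptcd3.

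The series holds 2 single-cell RNA-seq (scRNA-seq) libraries, 1 from day +7 and 1 from day +14 after allogeneic hematopoietic cell transplantation (allo-HCT). The hosts were BALB/c mice (H-2d) given a lethal dose of 8.5 Gy. Their grafts came from wild-type C57BL/6 mice (H-2b) and combined splenic T cells with 3500000 marrow cells depleted of T cells. Donor T cells carrying CD45, H2Kb and TCRβ and lacking H2Kd were sorted from the spleen. The labels give 200000 naive T cells per recipient and a supplementary legend 200000 splenic T cells, whereas the main legend of the experiment gives 700000. The library names carry the term PBS at both days. The methods give 6 to 12 weeks for female mice but also state that either sex was used. Cells were pooled from 5 spleens, so that neither day has replicates, and no untransplanted T cells were sequenced. The protocol text describes a day +7 sort for both libraries, and the day was therefore taken from the title. No test was possible, no P value is given, and the 95% intervals in brackets cover counting error only.

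Filtering kept 7179 cells at day +7, holding 86745047 UMIs, and 7794 cells at day +14, holding 83808218 UMIs, with median depths of 9210 and 8144 UMIs per cell. T cell receptor and CD3 transcripts summed to 5687 and 7521 CPM. Transcripts of 10 myeloid genes summed to 2372 and 2630 CPM and those of 8 erythroid genes to 198 and 87.8 CPM. In 207 and 137 cells, myeloid, erythroid or, in 1 cell at day +14, B cell transcripts outnumbered T cell transcripts. Those cells formed a non-T gate, which was described separately. The libraries shared 20 cell barcodes, 17 of them among the kept cells. Across the 6919 genes, the median log2 ratio of day +14 over day +7, with 1 CPM added to each value, was 0.18, so that a gene at 0 lay below most others. Scaling by the median ratio would lower each log2 ratio over all cells by 0.21.

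MRP transcripts were slightly less abundant at day +14. Together the 78 genes held 8126 CPM [8107, 8145] at day +7. At day +14 they held 7488 CPM [7469, 7506], which is a log2 ratio of -0.12 [-0.12, -0.11], or a change of -7.86%. The large subunit went from 5266 to 4852 CPM and the small subunit from 2860 to 2636 CPM, and both had a log2 ratio of -0.12. The ratio of large to small subunit UMIs was therefore 1.84 at either day. In cells thinned to 4000 UMIs each (198 of the day +7 and 969 of the day +14 cells were too shallow for this), the median cell had 30 MRP UMIs (quartiles 25 and 35) from 22 different MRP genes at day +7, and 28 (quartiles 23 and 33) from 21 genes at day +14.

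Among the 77 genes, 28 lay above 0 and 49 below, with a median log2 ratio of -0.09, and 73 lay below the median of all 6919 genes. Under median-ratio scaling 73 lay below 0, and 0 were higher and 35 lower by a log2 difference of 0.32, beside 10.8% and 16.3% of all genes. The counting interval excluded 0 on the upper side for 19 genes and on the lower side for 40, beside 64.8% and 20.7% of all genes. Differences were small for nearly all of them. That difference, a ratio of 5 to 4, served as the threshold throughout. On the CPM scale it was exceeded upward by 1 gene, Mrps6, and downward by 1 gene, Mrps24, whereas 29% of the 6919 genes were higher by this amount and 5.56% were lower. Without the cells of the non-T gate the MRP sum had a log2 ratio of -0.09, the median over genes was -0.02, 43 genes lay below 0, and 3 were higher and 2 lower by the threshold, beside 31.3% and 5.75% of all genes.

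**Figure D1:**
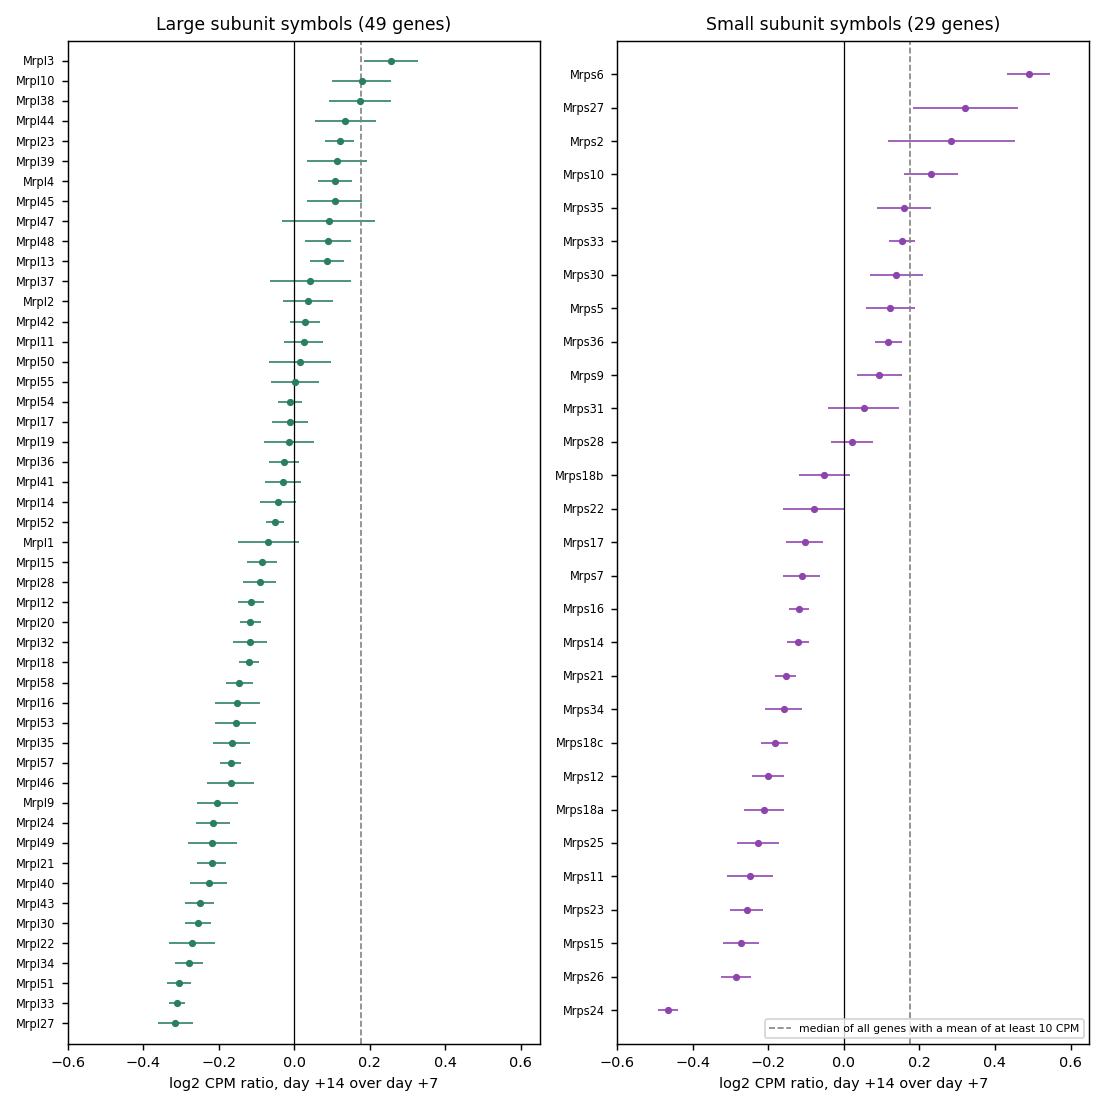
Log2 ratio of CPM at day +14 over day +7 for each of the 78 MRP genes over all kept cells, split by subunit symbol. Points are ratios without added CPM and lines are exact 95% intervals for counting error. The dashed line is the median of all genes with 1 CPM added, 0.18. With 1 CPM added, 73 of the 77 genes that reached 10 CPM on average lie below it, Mrpl10 only with this addition.

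Mrps24, a small subunit protein with a bacterial relative (ENSMUSG00000020477, minus strand of chr11:5703983-5715680 in GRCm38), had 320 CPM [316, 324] at day +7 and 232 CPM [228, 235] at day +14. It was lower at day +14 in the CD8 (324 and 236 CPM), CD4 (290 and 202 CPM), cycling (328 and 250 CPM) and non-cycling gates (296 and 184 CPM). The intervals of the days did not overlap in these gates. Mrps6, the small subunit relative of bacterial S6 (ENSMUSG00000039680, plus strand of chr16:92058270-92112227), had 50.1 CPM [48.6, 51.6] at day +7 and 70.4 CPM [68.6, 72.2] at day +14. It was higher at day +14 in CD8 (49.4 and 66.3 CPM), CD4 (67.2 and 104 CPM), cycling (51.5 and 67.8 CPM) and non-cycling cells (50.7 and 79.8 CPM).

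Both genes share exon sequence with a neighbor on the same strand in the GENCODE annotation. Mrps24 overlaps Urgcp by up to 226 bases and Mrps6 overlaps Slc5a3, an inositol transporter gene, by up to 159 bases, so that reads from the shared stretch cannot be told apart. Urgcp held 4.60 CPM at day +7 and 7.05 CPM at day +14, and Slc5a3 held 4.18 and 10.7 CPM. The part of these neighbors in the Mrps24 and Mrps6 counts was not tested. Of the 78 genes, 3 overlap another counted gene on the same strand, the remaining gene being Mrps34 with Nme3.

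The large subunit ran from -0.31 to 0.25 on the log2 scale. At its lower end, Mrpl33, a large subunit protein with a bacterial relative, had 489 CPM at day +7 and 394 CPM at day +14. Mrpl27, whose bacterial relative reaches into the peptidyl transferase center, had 96.1 and 77.2 CPM, Mrpl51, found only in mitochondria, had 203 and 165 CPM, and Mrpl34 had 153 and 126 CPM. All 4 were lower at day +14 in the CD8 and CD4 gates. They were picked from genes with the same direction in CD4, cycling CD8 and non-cycling CD8 cells. This agreement was therefore largely set by the choice of genes. At the upper end, Mrpl38 had 26.7 and 30.2 CPM, Mrpl10, which anchors the stalk that recruits translation factors, 29.4 and 33.2 CPM, Mrpl44, which carries an RNase III fold, 28.6 and 31.4 CPM, and Mrpl23, a protein of the exit tunnel, 120 and 131 CPM. Mrpl3 had the highest large subunit ratio over all cells, 34.1 and 40.8 CPM, but was not higher in non-cycling T cells (log2 ratio -0.02).

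In the small subunit, Mrps26 (131 and 107 CPM), Mrps15 (95.6 and 79.2 CPM) and Mrps23 (108 and 90.6 CPM) followed Mrps24 at the lower end. Mrps27, a pentatricopeptide repeat protein, had 8.90 CPM at day +7 and 11.1 CPM at day +14, Mrps10 had 34.3 and 40.2 CPM, and Mrps35 had 35.4 and 39.5 CPM. Of the genes with other places than their symbol says, Mrps30 had 36.8 and 40.4 CPM, Mrps18a 72.4 and 62.4 CPM and Mrps36 137 and 149 CPM. Placed by structure, the large subunit had a log2 ratio of -0.12 and the small subunit of -0.13. Proteins with bacterial relatives summed to -0.13 in the large subunit and -0.15 in the small subunit, and those found only in mitochondria to -0.10 and -0.09. The 5 genes of the stalk region (Mrpl10, Mrpl11, Mrpl12, Mrpl53 and Mrpl54) summed to 519 and 504 CPM, with a log2 ratio of -0.04.

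The direction went with the level of the gene, among MRP genes and among all genes. Between 10 and 50 CPM, 17 of 22 MRP genes lay above 0 and their median was 0.09, beside 0.23 for the 4356 genes of that band. Between 50 and 100 CPM the medians were -0.15 for 29 MRP genes and 0.13 for 1216 genes. Between 100 and 200 CPM they were -0.14 for 17 and 0.06 for 666, and between 200 and 500 CPM they were -0.12 for 9 and -0.01 for 403. In each band the MRP median thus lay below that of all genes. The distance ranged from 0.11 in the highest band to 0.28 between 50 and 100 CPM.

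**Figure D2:**
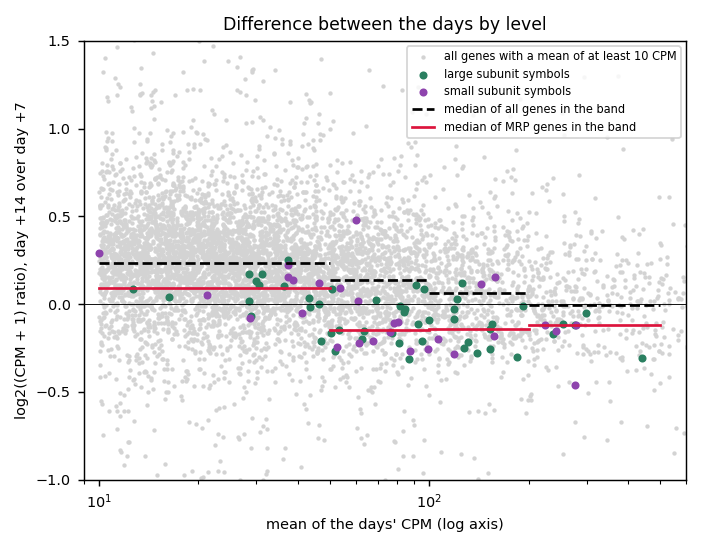
Log2 ratio of day +14 over day +7, with 1 CPM added, against the mean CPM of the days (log axis) for all genes (grey) and MRP genes (colored by subunit symbol). Horizontal lines give the band medians: the MRP median was 0.09 below 50 CPM and -0.15, -0.14 and -0.12 in the bands above it, and the all-gene median was higher in each of the 4 bands; genes beyond the axis are not drawn.

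T cells were next divided by their transcripts. CD8 cells (Cd8a or Cd8b1 detected, Cd4 and Foxp3 not) numbered 5834 and 5951, CD4 cells (Cd4 detected, Cd8a, Cd8b1 and Foxp3 not) 457 and 695, and Foxp3+ cells without Cd8a or Cd8b1 41 and 39. The Foxp3+ cells held 576 and 1022 CPM of Ikzf2 (Helios), against 15.4 and 85.3 CPM in CD8 cells, and 238 and 202 CPM of Il2ra (CD25), against 36.6 and 5.13 CPM. Median depth in the CD4 gate was 8228 UMIs at day +7 and 5325 at day +14, and 9240 and 8606 UMIs in the CD8 gate.

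The MRP sum was lower at day +14 in each of these gates. CD8 cells held 8024 CPM at day +7 and 7580 CPM at day +14 (log2 ratio -0.08 [-0.09, -0.08]). CD4 cells held 7699 and 7117 CPM (log2 ratio -0.11 [-0.13, -0.09]). Foxp3+ cells held 7954 and 7075 CPM (log2 ratio -0.17 [-0.25, -0.08]), the widest interval of the T cell gates. Median-ratio scaling turned the order of the gates, with log2 ratios of -0.30 in CD8, -0.21 in CD4 and -0.12 in Foxp3+ cells. Its shifts of 0.22, 0.09 and -0.05 came from different gene sets, of 9853, 4463 and 364 genes. Over the same genes in each gate, the median log2 ratios of all genes were 0.19, 0.15 and 0.15. Whether the order turns with a shared gene set was not tested. The large-to-small ratio stayed between 1.81 and 1.85 across these gates and days. In CD8 cells 37 MRP genes lay above 0 and 40 below. The threshold was passed upward by 4 (Mrpl3, Mrpl38, Mrps27 and Mrps6) and downward by 3 (Mrps24, Mrpl27 and Mrpl33), beside 31% and 6.2% of all genes. Median-ratio scaling gave 0 and 27, beside 11% and 16.9%. In CD4 cells 26 lay above 0 and 51 below. There, 4 were higher and 7 lower by the threshold, beside 32.6% and 7.56%. Median-ratio scaling gave 2 and 20, beside 23.8% and 11.7%, and the mean of per-cell CPM 4 and 21, beside 38.4% and 10.7%. Of the 77 genes, 64 had the same direction in CD8 and CD4 cells, 39 of them lower and 25 higher, which is 83.1% beside 79.4% of all genes, and both gates come from the same 2 libraries.

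As whole gates, CD8 cells held slightly more MRP transcripts than CD4 cells at either day, with log2 ratios of the sum of 0.06 [0.04, 0.08] at day +7 and 0.09 [0.08, 0.11] at day +14. The CD8 gate held a larger share of cycling cells, called from 10 cycling genes (2779 of 5834 and 3119 of 5951, against 166 of 457 and 188 of 695), and the order did not hold within them. Among cycling cells the ratio was 0.03 at day +7 (8365 and 8172 CPM) and -0.02 at day +14 (7944 and 8063 CPM), with intervals on opposite sides of 0. Among non-cycling cells it was -0.01 (7046 and 7115 CPM) and 0.03 (6354 and 6206 CPM), with intervals that included 0. For the whole gates, median ratios of CD8 over CD4 cells over genes were 0.03 and 0.10, beside -0.01 and 0.00 for all genes. Among genes higher in the CD4 gate, Mrps6 had 67.2 CPM in CD4 and 49.4 CPM in CD8 cells at day +7, and 104 and 66.3 CPM at day +14. Mrpl52 had 320 CPM in CD4 and 277 CPM in CD8 cells at day +7, and 372 and 283 CPM at day +14.

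**Figure D3:**
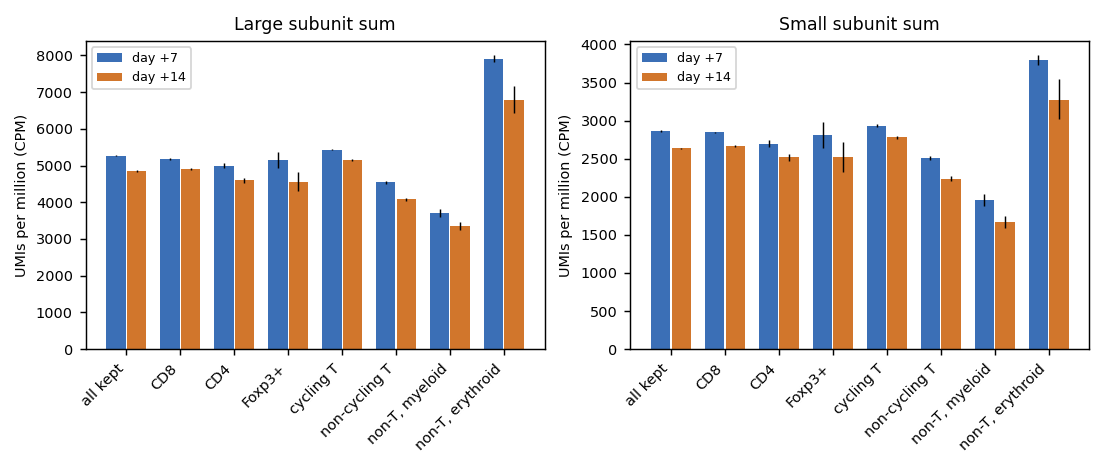
Summed CPM of large subunit (left) and small subunit (right) genes by gate at day +7 (blue) and day +14 (orange), with bars from 0 and exact 95% Poisson intervals for counting error. In each of the 8 gates shown, both sums were lower at day +14, and the non-T erythroid cells had the highest and the non-T myeloid cells the lowest sums.

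Cycling T cells were then set against non-cycling ones. After each cell was thinned to 4000 UMIs, cells with at least 3 of 10 cycling genes (Mki67, Top2a, Cdk1, Ccna2, Ccnb1, Birc5, Nusap1, Rrm2, Tyms and Mcm5) were called cycling, 3217 at day +7 and 3721 at day +14, and cells with none non-cycling, 1767 and 1312. Cells under 4000 UMIs could not be placed, which kept 6817 of 6954 T cells at day +7 and 6737 of 7615 at day +14, a larger loss at day +14. At day +7 the MRP sum was 8366 CPM [8342, 8391] in cycling and 7052 CPM [7006, 7099] in non-cycling cells, a log2 ratio of 0.25 [0.24, 0.26]. At day +14 it was 7928 CPM [7905, 7951] and 6313 CPM [6260, 6366], a log2 ratio of 0.33 [0.32, 0.34]. Cycling cells were deeper, with medians of 14063 and 13071 UMIs against 6632 and 5694. At 4000 UMIs per cell the median cycling cell had 32 MRP UMIs at day +7 and 30 at day +14, and the median non-cycling cell 28 and 24.

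Most members shared this direction. At day +7, 65 of 77 genes were above 0, with a median log2 ratio of 0.29 beside 0.07 for all genes. There, 37 were higher and 2 lower by the threshold, beside 29.8% and 18.4% of all genes. At day +14, 67 were above 0, with a median of 0.43 beside 0.05, and 44 were higher and 2 lower, beside 29.6% and 21.4%. The distance from all genes depended on the level of the gene. From the lowest to the highest CPM band, day +7 medians were 0.37, 0.25, 0.29 and 0.15 for MRP genes. Those of all genes were 0.04, 0.10, 0.23 and 0.16. For day +14 the MRP medians were 0.50, 0.32, 0.45 and 0.39, beside -0.0047, 0.10, 0.21 and 0.22. Of the genes past the threshold upward, 35 were shared, which is 94.6% of the day +7 genes and 79.5% of the day +14 genes. The days share no cells here. Across the 77 genes the cycling ratios of the days had a Pearson r of 0.92, and across all 6919 genes 0.95, which describes genes and not replicates.

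The highest ratios belonged to 3 genes. Mrpl28, a large subunit protein with a bacterial relative (chr17:26123500-26126613, plus strand), had 118 CPM in cycling and 59.1 CPM in non-cycling cells at day +7, and 111 and 51.4 CPM at day +14. Mrpl18, whose bacterial relative binds 5S rRNA (chr17:12911349-12916345, minus strand), had 331 and 176 CPM at day +7 and 306 and 146 CPM at day +14. Mrps22, found only in mitochondria (chr9:98588730-98601660, minus strand), had 32.3 and 16.9 CPM, then 31.3 and 15.5 CPM. The stalk genes, including Mrpl12, summed to log2 ratios of 0.34 and 0.43.

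A minority went the other way, and 7 genes lay below 0 at both days. Mrpl9 (chr3:94443318-94451130, plus strand) had 57.5 CPM in cycling and 90.7 CPM in non-cycling cells at day +7, and 54.3 and 74.0 CPM at day +14. Mrpl24 had 95.2 and 126 CPM, then 83.4 and 106 CPM, and Mrpl30 had 152 and 186 CPM, then 137 and 150 CPM. All 3 are large subunit proteins with bacterial relatives. Mrpl9 and Mrpl24 overlap Oaz3 and Rrnad1 on the opposite strand, as 25 of the 78 genes overlap another counted gene there, Mrpl18 among them. The others were Mrpl32, Mrpl43, Mrps16 and Mrps34. Mrpl52 was level at day +7 (log2 ratio 0.01) and lower in cycling cells at day +14 (-0.29), at 283 and 345 CPM.

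**Figure D4:**
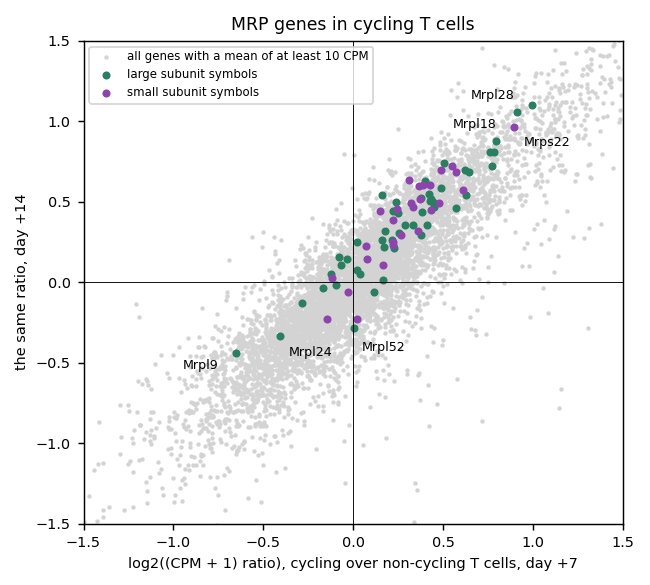
Log2 ratio of cycling over non-cycling T cells, with 1 CPM added, at day +7 (horizontal) and day +14 (vertical) for all genes (grey) and MRP genes (colored by subunit symbol). Most MRP genes, 62 of 77, sit in the upper right quadrant, with Mrpl28, Mrpl18 and Mrps22 at its far end and Mrpl9 and Mrpl24 opposite; genes beyond the axes are not drawn.

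The same contrast was seen within CD8 cells (log2 ratio of the sum 0.25 at day +7 and 0.32 at day +14) and within CD4 cells (0.20 and 0.38). Cells were then placed in steps by how many of the 10 cycling genes they held after thinning. At day +7 the MRP sum was 7052 CPM with 0 genes, 7658 CPM with 1 or 2, 8645 CPM with 3 to 5, 8153 CPM with 6 to 8 and 7798 CPM with 9 or 10. At day +14 the order was the same, at 6313, 7036, 8188, 7745 and 7654 CPM. The sum therefore peaked at 3 to 5 genes, and the days came closest in the last step. Cycling cells with S phase transcripts held 8666 and 8068 CPM, and those with G2/M transcripts 8120 and 7696 CPM, a log2 ratio of G2/M over S of -0.09 [-0.11, -0.08] at day +7 and -0.07 [-0.08, -0.05] at day +14.

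**Figure D5:**
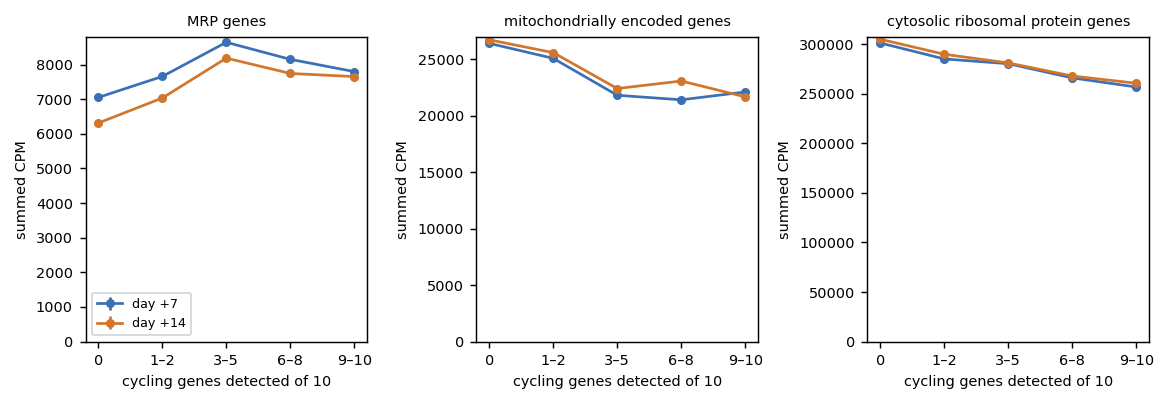
Summed CPM of MRP, mitochondrially encoded and cytosolic ribosomal protein genes in T cells by the number of cycling genes detected of 10 after thinning, at day +7 (blue) and day +14 (orange); bars on the MRP points, mostly smaller than the symbols, are exact 95% Poisson intervals. The MRP sum goes from 7052 to 8645 CPM at day +7 and from 6313 to 8188 CPM at day +14 between 0 and 3 to 5 genes, while the other sums are lower in cells with 3 to 5 genes than in cells with 0.

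Between the days, the MRP sum differed less in cycling than in non-cycling T cells. The log2 ratio of day +14 over day +7 was -0.08 [-0.08, -0.07] in cycling and -0.16 [-0.18, -0.14] in non-cycling cells. Among cycling cells 4 MRP genes were higher by the threshold and 1 was lower, beside 27.2% and 6.06% of all genes, and median-ratio scaling gave 0 and 23, beside 10.2% and 14.3%. Among non-cycling cells 1 was higher and 10 were lower, beside 35.9% and 8.3%. Median-ratio scaling gave 1 and 37, beside 19.9% and 18.4%, and thinned cells 2 and 18, beside 35.8% and 8.96%. Mrps24 led the lower genes, with Mrpl33 next at 487 and 345 CPM. Cycling CD4 cells, 166 and 188 in number, gave an interval that included 0 (log2 ratio -0.02 [-0.05, 0.01]), and non-cycling CD4 cells gave -0.20 [-0.25, -0.15].

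Of the gates compared, the non-T gate had the largest difference between the days, and its makeup differed too. It held 10236 CPM of MRP transcripts at day +7 and 5818 CPM at day +14 (log2 ratio -0.82), and 68 of 77 genes were lower by the threshold, beside 37.1% of all genes. At day +7 it was made up of 123 cells with mainly erythroid and 84 with mainly myeloid transcripts, and at day +14 of 26 and 110, with 1 cell of mainly B cell transcripts. Erythroid cells held 11700 CPM [11589, 11813] and 10061 CPM [9614, 10523] of MRP transcripts, a log2 ratio of -0.22. Myeloid cells held 5670 CPM [5534, 5809] and 5026 CPM [4892, 5163], a log2 ratio of -0.17. The erythroid cells also differed in depth, with medians of 32632 and 3204 UMIs, and in erythroid transcripts, with 4450 and 31593 CPM. In these cells Mrpl52 reached 835 CPM at day +7 and 607 CPM at day +14, against 143 and 147 CPM in myeloid cells.

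Genes that work with the mitochondrial ribosome were then compared over all cells. Of 13 measured assembly and rRNA modification genes, 4 were above 0 and 9 below (median -0.04). Ddx28, an assembly helicase, had 27.6 and 17.8 CPM, and Trub2, a pseudouridine synthase, had 8.43 and 13.0 CPM. Of 13 translation factor genes, 8 were above 0 (median 0.10), among them Guf1 (9.53 and 13.6 CPM), and Tufm, the elongation factor that brings aminoacyl-tRNA, had 37.1 and 36.3 CPM. Of 8 mitochondrial tRNA synthetase genes, 7 were above 0 (median 0.12), and the exception, Lars2, had 370 and 156 CPM. Of 9 genes for replication, transcription and RNA processing of mitochondrial DNA, 8 were above 0 (median 0.10), the exception being Tfam (63.8 and 61.8 CPM), which packages and transcribes that DNA. The medians of these 4 lists lay below the all-gene median of 0.18, and 73.2% of all genes were above 0.

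Genes for import and for other products of the nucleus and mitochondrion were counted in the same way. Of 29 genes for protein import and folding, 15 were above 0 and 14 below (median 0.00), with Hspa9, the matrix chaperone, at 51.1 and 74.9 CPM. Of 76 nuclear genes of oxidative phosphorylation, 17 were above 0 and 59 below (median -0.11). Of 77 cytosolic ribosomal protein genes, 32 were above 0 and 45 below (median -0.03). The 13 mitochondrially encoded genes summed to 23400 and 23864 CPM, with 8 above 0 and 5 below, and mt-Atp8, whose reading frame overlaps that of mt-Atp6, was at 161 and 88.6 CPM. Of the subunits with other symbols, Gadd45gip1 (148 and 118 CPM), Aurkaip1 (268 and 224 CPM) and Chchd1 (141 and 125 CPM) were lower at day +14, and Dap3 had 57.9 and 62.0 CPM.

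In cycling against non-cycling T cells these groups parted. Mitochondrially encoded transcripts, which the mitochondrial ribosome translates, summed to 21621 CPM in cycling and 26391 CPM in non-cycling cells at day +7 (log2 ratio -0.29), and 22691 and 26702 CPM at day +14 (-0.23). Cytosolic ribosomal protein genes also had lower sums in cycling cells, with log2 ratios of -0.15 and -0.16. Because these 2 groups are a large share of all UMIs, the MRP ratio was also taken over a reduced total, without them and without rRNA-associated genes, and was then 0.15 at day +7 and 0.23 at day +14. On that total 25 MRP genes were higher and 3 lower by the threshold at day +7, beside 24.4% and 24.6% of all genes, and 40 and 4 at day +14, beside 24.6% and 28.1%. On the full total, nuclear genes of oxidative phosphorylation had log2 ratios of 0.10 and 0.18, and on the reduced total 0.0035 and 0.08. Import genes had 0.18 and 0.34 on the full and 0.08 and 0.25 on the reduced total, with Timm8a1 (1.16 and 1.36) and Timm50 (1.14 and 1.21) highest on the full total. Dap3 and Chchd1 were higher in cycling cells at both days (0.46 and 0.26, and 0.59 and 0.73), whereas Ddx28 was lower (-1.08 and -0.87).

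Promoters were inspected because the members mostly shared a direction in cycling cells. RefSeq windows on GRCm38.p6, 300 bases from 250 before to 50 after the start, were found for 69 of the 78 genes, 75 windows in all. Both strands were searched for letters of 4 factors with known roles in mitochondrial or growth genes. CCGGAAG, the core bound by ETS factors such as GABP, was in 34.7% of MRP windows, 8.86% of all 32851 windows and 22.3% of windows of the genes with at least 10 CPM. GCGCANGCG, read by NRF1, was in 21.3%, 6.25% and 15.9%. AAGATGGCG, read by YY1, was in 10.7%, 1.40% and 3.77%, and CACGTG, the E-box read by MYC, in 9.33%, 7.15% and 10.6%. None of these motifs contains another, though matches may overlap at their ends. A match describes the sequence only.

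Of 6 measured regulators of mitochondrial biogenesis, 5 were above 0 over all cells, with a median of 0.31, beside 80.5% above 0 and a median of 0.23 among the genes at 10 to 50 CPM, where 5 of the 6 lie. Gabpa had 23.8 and 29.8 CPM, Nrf1 28.6 and 35.6 CPM, Yy1 87.1 and 91.6 CPM and Myc 16.6 and 22.6 CPM at day +7 and day +14. The 26 genes with CCGGAAG had a median day ratio of -0.16 and a median cycling ratio, averaged over the days, of 0.35, and the 42 measured genes with a window without it had -0.04 and 0.37. The 16 genes with GCGCANGCG had a median cycling ratio of 0.33 and the 52 measured genes without it 0.35, with interquartile ranges of 0.12 to 0.47 and 0.21 to 0.51 that overlap. For AAGATGGCG the medians were 0.39 in 8 genes with it and 0.35 in 60 without, and for CACGTG 0.44 in 5 and 0.35 in 63. The 250 bases before the start are shown for the highest cycling ratios (Mrpl28, Mrpl18 and Mrps22), for the lowest (Mrpl9) and for Mrpl51, which was low at day +14, with CCGGAAG or GCGCANGCG matches in capitals.
Mrpl28 (chr17:26123253-26123502, plus strand): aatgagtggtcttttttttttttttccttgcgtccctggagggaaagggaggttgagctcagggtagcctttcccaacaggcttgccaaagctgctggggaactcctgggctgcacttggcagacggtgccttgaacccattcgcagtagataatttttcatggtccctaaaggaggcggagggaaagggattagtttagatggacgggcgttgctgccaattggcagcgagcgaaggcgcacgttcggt
Mrpl18 (chr17:12916092-12916341, minus strand): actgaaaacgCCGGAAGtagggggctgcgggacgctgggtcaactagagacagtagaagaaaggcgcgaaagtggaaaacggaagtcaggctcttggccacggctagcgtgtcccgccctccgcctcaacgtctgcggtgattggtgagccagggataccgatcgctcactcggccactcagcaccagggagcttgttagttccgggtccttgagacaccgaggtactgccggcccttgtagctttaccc
Mrps22 (chr9:98601680-98601929, minus strand): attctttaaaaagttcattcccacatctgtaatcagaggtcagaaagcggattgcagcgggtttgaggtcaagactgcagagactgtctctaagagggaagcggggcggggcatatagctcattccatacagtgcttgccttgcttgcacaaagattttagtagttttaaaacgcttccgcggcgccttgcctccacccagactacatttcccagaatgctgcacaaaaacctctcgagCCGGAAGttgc
Mrpl51 (chr6:125191950-125192199, plus strand): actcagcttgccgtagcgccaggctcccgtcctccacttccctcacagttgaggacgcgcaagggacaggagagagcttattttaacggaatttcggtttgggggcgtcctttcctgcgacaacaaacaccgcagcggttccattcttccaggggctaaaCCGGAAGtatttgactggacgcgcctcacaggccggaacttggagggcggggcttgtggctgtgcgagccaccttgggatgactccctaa
Mrpl9 (chr3:94443086-94443335, plus strand): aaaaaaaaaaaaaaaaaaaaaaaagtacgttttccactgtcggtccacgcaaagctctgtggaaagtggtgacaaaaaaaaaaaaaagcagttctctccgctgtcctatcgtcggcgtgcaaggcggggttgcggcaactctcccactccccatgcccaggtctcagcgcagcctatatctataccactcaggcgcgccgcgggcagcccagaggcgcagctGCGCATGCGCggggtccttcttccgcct
Mrpl28 holds no match and shares the top of the cycling order with Mrpl18 and Mrps22, which each hold CCGGAAG, and Mrpl9 holds GCGCANGCG on either strand. Further windows were inspected but are not shown, and none of them holds a whole match within the 250 bases. Mrpl24, also among the lowest cycling ratios, and Mrps6 hold no match. Mrpl33 holds CCGGAAG at -3 from the start, running past it, and Mrps24 holds only AAGATGGCG, at 36 bases after it.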

How the data were processed

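UMI counts came from 2 10x Genomics libraries. The authors made the reads into whole-number UMI counts per gene and cell with Cell Ranger 6.1.2 against mm10, per the file headers and the submitters' processing notes, and deposited them for detected cell barcodes with no normalization. Barcodes with 500 to 7500 genes and at most 15% mitochondrial UMIs were kept, as in the study's methods, which left out 176 of 7355 and 249 of 8043. Scrublet called 0 doublets in either library, which was taken as a failure of its automatic threshold, and doublets were left in. The cause of this was not tested. Leaving out the cells with the highest scores gave a log2 ratio of the MRP sum over all cells of -0.11.

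The UMIs of a gate were added up and divided by the gate's total. Log2 ratios of single genes had 1 CPM added, and those of sums had none. CPM carry exact Poisson intervals and ratios exact conditional binomial intervals, both at 95%. T cells had at least 3 UMIs of T cell receptor constant region (Trac, Trbc1, Trbc2) or CD3 (Cd3e, Cd3d, Cd3g) genes and more of these than of myeloid, erythroid and B cell markers. S phase cells held at least 2 of Tyms, Rrm2 and Mcm5 and none of Ccnb1, Nusap1 and Birc5, and G2/M cells at least 2 of the latter 3. Gene positions are from GENCODE M21 (GRCm38). Python 3.11.15 with numpy 2.4.6, scipy 1.17.1, pandas 2.3.3 and scanpy 1.11.5 was used.

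Named genes were, for each subunit, the 5 with the highest mean CPM and the 4 highest and 4 lowest day ratios among those with the same direction in CD4, cycling CD8 and non-cycling CD8 cells, then the 3 highest and 3 lowest cycling ratios with the same direction at both days and the genes whose symbol misplaces them, and in related lists the 2 with the highest mean CPM and the extreme day ratios. Other genes in the text were picked with their values in view. The members and lists were chosen with earlier results of these data known. The splits of cycling, CD4 and non-T cells, the CPM bands, CD8 against CD4 within cycling and non-cycling cells, related sums on the reduced total, the promoter search and the exon overlaps were added after seeing the data. On simulated counts for 6919 genes, all 100 genes changed 1.5-fold and all 100 changed 2-fold were called in the right direction, 0 of 6719 unchanged genes passed a log2 difference of 0.32, and 95.4% of intervals held the true value. These counts were Poisson draws at the depth of the whole libraries, without variation between cells or mice. They check the arithmetic only and do not cover the smaller gates.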

Additional observations from a re-analysis of the deposited data

Results flagged for a closer look

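The barcodes left out by the filters, which enter no comparison, still held MRP transcripts: 4618 CPM [4405, 4840] in 176 barcodes of the day +7 library and 4655 CPM [4452, 4864] in 249 barcodes of the day +14 library. Both levels lay below those of the kept T cells.

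For 11 named genes the counting interval of the day +14 over day +7 ratio lay on opposite sides of 0 in CD8 cells and in the whole non-T gate, a difference that was not tested. Mrpl33 was lower at day +14 in CD8 cells and higher in the non-T gate, with a difference of the log2 ratios of -0.69. The others were higher in CD8 cells and lower in the whole non-T gate. In the large subunit the differences were 1.67 for Mrpl52, 0.99 for Mrpl23, 1.06 for Mrpl44 and 2.14 for Mrpl38. Among Mrps symbols they were 0.74 for Mrps33, 0.92 for Mrps35, 1.51 for Mrps10, 1.59 for Mrps27, 1.07 for Mrps30 and 0.84 for Mrps36. The non-T gate held 123 mainly erythroid cells of 207 at day +7 and 26 of 137 at day +14, and within its cell types 4 of the 10 were not below 0 throughout. The log2 ratio of Mrpl23, -0.80 in the whole gate, was 0.01 in myeloid and 0.10 in erythroid cells. That of Mrpl52 was -1.63 in the whole gate, 0.03 in myeloid and -0.46 in erythroid cells. Mrps30 was at 0.24 in myeloid and -0.10 in erythroid cells, and Mrps36 at -0.20 and 0.40. The remaining 6 (Mrpl44, Mrpl38, Mrps33, Mrps35, Mrps10 and Mrps27) were below 0 in both cell types, from -0.33 to -0.07 in myeloid and from -1.72 to -0.05 in erythroid cells.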

How the results depend on the processing

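No paired analysis was possible because each day has 1 library. Alternatives were run for the MRP sum in 7 gates and both cycling contrasts and for the subunit sums over all cells, and the direction of these sums was kept under all 62: 27 moved the value by less than its counting interval, 35 by more, and 0 turned it. Of 224 alternatives for named genes, 148 stayed within the counting interval and 76 moved beyond it. The count of turned directions, where the interval excluded 0, was 0. That count does not reflect median-ratio scaling over all cells, which put 73 of 77 genes below 0, some with counting intervals above 0 on the CPM scale. Mrpl23, with a log2 ratio of 0.12 [0.08, 0.16], lies within the shift of 0.21 and so turns under it. Median-ratio scaling gave log2 ratios of day +14 over day +7 of -0.33 over all cells, -0.30 in CD8, -0.21 in CD4, -0.27 in cycling and -0.35 in non-cycling cells, and cycling ratios of 0.23 at day +7 and 0.36 at day +14. Counts of genes past the threshold of 0.32 moved with it: 1, 3, 7, 1 and 10 genes lower in all, CD8, CD4, cycling and non-cycling cells became 35, 27, 20, 23 and 37, whereas the other alternatives gave 1 to 4, 3, 6 to 21, 1 to 3 and 9 to 18. Beside these latter counts stood 5.52% to 7.84%, 6.11% to 7.8%, 7.44% to 11.3%, 5.9% to 7.62% and 8.25% to 11.5% of all genes. Genes higher numbered 0 to 3, 0 to 5, 1 to 10, 0 to 4 and 1 to 2 under any alternative, beside 10.8% to 35.7%, 11% to 36.4%, 18.9% to 39.1%, 10.2% to 30.8% and 19.9% to 41.2%. In the cycling contrast 24 to 38 genes at day +7 were higher, beside 24.4% to 34.3%, and 30 to 49 at day +14, beside 24.6% to 36.5%, the lowest counts coming where 55 genes were tested. A total without ribosomal protein, mitochondrial and rRNA-associated genes gave -0.15 over all cells and for either subunit, -0.10 in CD8, -0.15 in CD4, -0.093 in cycling, -0.18 in non-cycling and -1.09 in non-T cells, and 0.15 and 0.23 for the cycling ratios. The mean of per-cell CPM gave -0.16 over all cells and for either subunit, -0.13 in CD8, -0.22 in CD4 and -0.33 in Foxp3+ cells, and 0.21 and 0.30. Thinned cells gave -0.11 over all cells, -0.090 in CD8 and -0.18 in non-cycling cells, and 0.20 and 0.31. Gating cycling on all UMIs gave -0.23 in non-cycling cells, and 0.27 and 0.42. Leaving out the non-T gate gave -0.091, and placing genes by structure gave -0.13 for the small subunit. The cause of these moves was not tested. Of the T cell gates, depth limits the Foxp3+ cells most, with 386861 and 257388 UMIs. The non-T erythroid gate held 189344 UMIs at day +14.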
